A study of Rattus norvegicus with 24 samples.

Results

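The neurotrophins Bdnf and Ntf3, the related growth factor Gdnf, and the receptors Ntrk2, Ntrk3, Ngfr, Gfra1 and Ret were followed on every array of a study of the rat dorsal striatum. All array probes whose gene name was 1 of these 8 names were taken, which gave 21 of 45598 probes. Of these, 16 were kept by a filter on dim probes, for 7 of the 8 genes. Ntf3 did not pass.

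The study asked what MDPV left behind in the striatum. MDPV (methylenedioxypyrovalerone) is a synthetic cathinone, a stimulant that inhibits dopamine and noradrenaline reuptake. Male Long Evans rats of 80 to 90 days were given 1 intraperitoneal injection a day on 5 days. In the saline group all 5 injections were saline, in the acute group 4 saline injections were followed by a last injection of MDPV, and in the chronic group all 5 injections were MDPV. The dose was 1 mg/kg, the rats were killed 24 h after the last injection, and the left dorsal striatum was dissected by hand from frozen brains, so all 3 groups share the injections, the handling and the dissection. A single 24 h time point and a hand-cut piece of tissue limit what these groups can model. Total RNA labelled with Cy3 was hybridised to 1-colour Agilent arrays, 8 arrays a group. The arrays of 6 pairs whose labels share a letter were averaged, which left 18 samples, 6 a group, the number per group that the design states. That a shared letter marks 1 sample is a reading of the labels, which do not say so, and arrays that share one were not alike (consensus correlation -0.37 over all genes by limma). Nothing in the labels ties the other samples to separate rats, so p-values rest on this pairing and measure the spread between these samples, part of which may be technical.

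Neurotrophins are secreted proteins that keep neurons alive and strengthen synapses. BDNF and NT-3 (the product of Ntf3) act through the receptor tyrosine kinases TrkB (Ntrk2) and TrkC (Ntrk3), each also made in forms without the kinase, while p75 (Ngfr) binds all neurotrophins and their precursors. GDNF, a survival factor for dopamine neurons, binds the membrane-anchored co-receptor GFRA1, which brings it to the receptor kinase RET. Striatal neurons transcribe little Bdnf themselves, and most BDNF protein in the striatum is carried there by axons from the cortex, where the gene is transcribed.

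Several of the 21 probes lie in coding sequence, and 4 of these are shown because the results below turn on which stretch of a transcript was read. Each is 60 bases long, written 5′ to 3′ in lower case, and positions are those of the rat build rn4 given for the arrays. The Ntrk2 probe (chr17:11496095-11496154, minus strand) reads the end of the coding sequence of the kinase form, and its capitals mark the codon of the tyrosine where phospholipase C gamma docks. The Ntrk3 probe (chr1:134081453-134081512, minus strand) reads the stretch just inside the membrane, and its capitals mark the codon of the tyrosine in the motif where the adaptor Shc docks. The Gdnf probe (chr2:57423957-57424016, plus strand) reads the end of the coding sequence, and its capitals mark the stop codon. The Ntf3 probe (chr4:162436573-162436632, minus strand) reads the part that codes for the precursor and carries no capitals.
Ntrk2: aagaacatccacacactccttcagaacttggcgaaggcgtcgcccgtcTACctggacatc
Ntrk3: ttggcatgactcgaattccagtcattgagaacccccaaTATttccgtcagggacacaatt
Gdnf: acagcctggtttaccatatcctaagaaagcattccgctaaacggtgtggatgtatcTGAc
Ntf3: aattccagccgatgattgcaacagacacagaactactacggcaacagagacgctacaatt

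Between 50.7% and 71.3% of the spots on an array were well above background, and no spot was saturated. Values are log2 of the processed signal minus the array's 75th percentile, so 0 is the brightness of that percentile and 1 unit is a doubling. Levels are not compared between probes, since each probe has its own brightness. The tissue label was checked against its markers, and 15 of 15 markers of striatal projection neurons were well above background on 24 of 24 arrays, with a mean log2 level of 1.80 to 3.68. Saline replicate 4 stood apart. It was lowest in each of those 15 genes, and highest in Avp (2.60) and Oxt (1.99), the peptide genes of the hypothalamus, whose medians over the arrays were -4.73 and -2.16. It was also highest in each of 10 markers of thalamus, septum and pallidum. Differences and relations of members that turned or lost the test without it are also given without it.

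No member passed the test between treatment groups. None of the 7 members tested passed an adjusted p of 0.05 for acute against saline, chronic against saline, chronic against acute or any difference over the 3 groups (limma, Benjamini-Hochberg over 20697 genes), beside 0% of all genes in each comparison. At an unadjusted p of 0.05 the counts of members were also 0 of 7, beside 1.61%, 2.86%, 2.46% and 1.72% of all genes. The smallest unadjusted p of a member was 0.126, for Gdnf in chronic against acute. A p above the threshold does not show that the groups were alike, and the width of the intervals below says what size of change each probe could have missed.

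**Figure D1:**
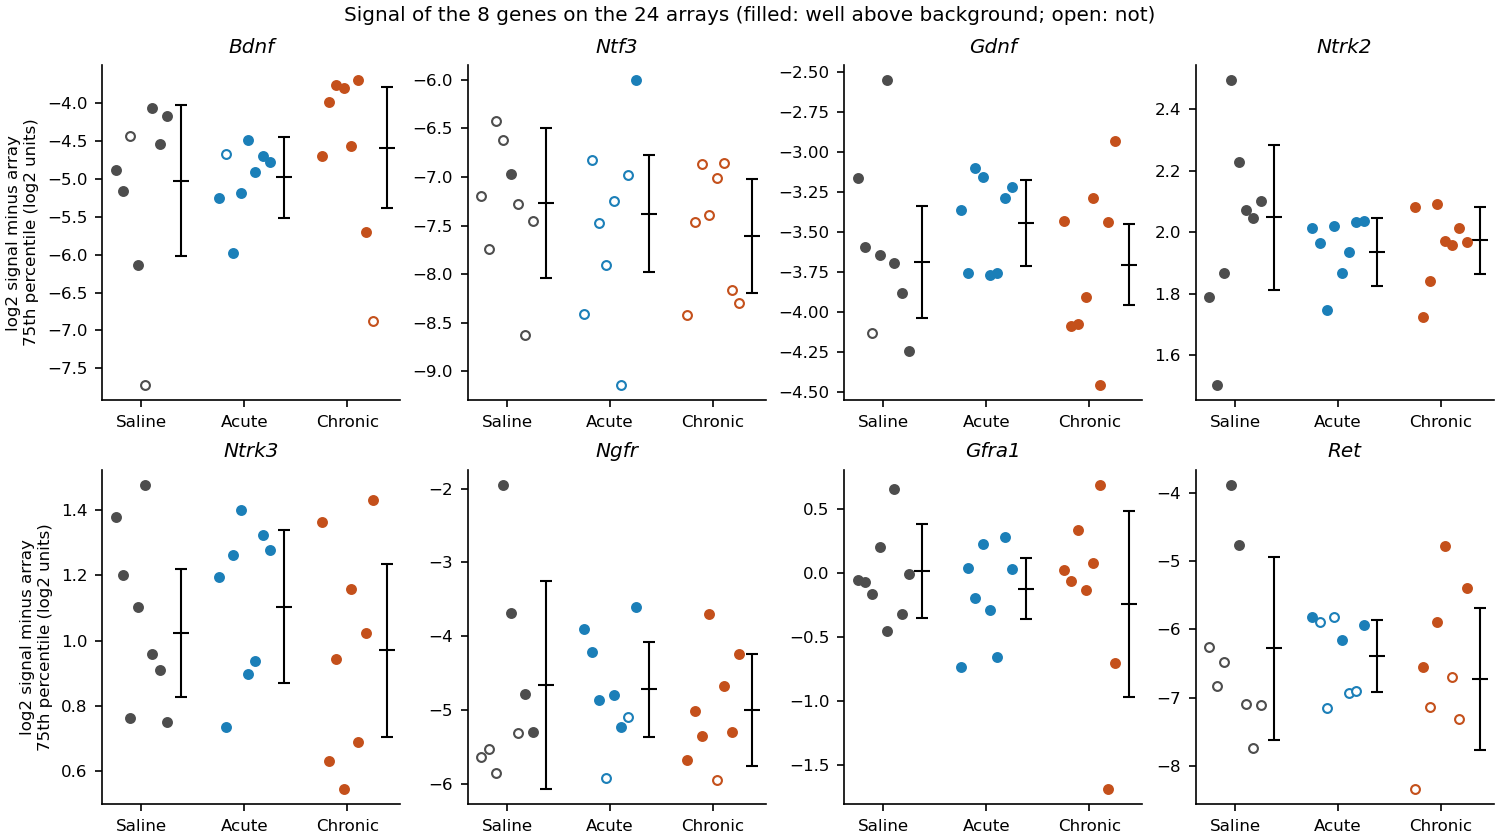
Values of the probe used for each of the 8 genes on the 24 arrays (vertical axes: log2 signal minus the array's 75th percentile, a scale of its own in each panel; groups side by side). Filled points were well above background and open points were not; the black bar is the mean ± SD over the 6 samples of a group. The groups overlap in every panel, and single arrays such as saline replicate 4 in Ngfr (-1.95) and chronic replicate 7 in Gfra1 (-1.69) lie far from the rest.

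Bdnf, the ligand of TrkB, was read by 1 probe (chr3_random:979381-979440, plus strand), which was well above background on 20 of 24 arrays. Its log2 level ran from -7.71 through a median of -4.72 to -4.07 over the saline arrays, from -5.99 through -4.84 to -4.49 over the acute arrays, and from -6.87 through -4.28 to -3.71 over the chronic arrays. The groups overlapped along their whole middle range, and the lowest arrays were saline replicate 5, chronic replicate 8 and saline replicate 4. The first 2 of these were not well above background. The SD over the arrays was 0.98, more than that of 96.4% of the 6636 tested genes that, like Bdnf, were not well above background on every array.

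Mean Bdnf was -5.03 ± 1.00 in saline, -4.98 ± 0.54 in acute and -4.59 ± 0.79 in chronic samples (SD, n = 6 each). The difference of acute from saline was 0.04 (SE 0.43, 95% interval -0.86 to 0.94), and that of chronic from saline was 0.44 (SE 0.43, -0.46 to 1.34), with limma adjusted p of 1.00 and 0.999. On a linear scale the second interval runs from 0.725-fold to 2.53-fold, so a doubling of Bdnf after 5 doses lies inside it. Chronic minus acute was 0.39 (SE 0.43, adjusted p = 0.961 by limma). The chronic-saline difference was 0.68 on slide 1, 1.94 on slide 2 and -1.93 on slide 3, and 0.50 with the slide as a block. It was 0.22 without saline replicate 4, 0.15 without the saline pair of replicates 2 and 5, 0.27 without chronic replicate 3, 0.28 without chronic replicate 4 and 0.66 without chronic replicate 7, and the acute-saline difference turned to -0.18 without saline replicate 4. The chronic-saline difference turned to -0.17 when the levels of the cortical and choroid plexus marker lists were entered as covariates.

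Ntf3, which codes for NT-3, was at the edge of measurement. Its probe was well above background on 2 of 24 arrays, saline replicate 5 and acute replicate 8, and its log2 signal ran from -9.14 to -6.01. The weaker criterion of a signal that is positive and significant was met on 15 arrays. No difference between groups is given for it.

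Gdnf was read by 2 probes that gave different answers about its presence. The coding-end probe shown above was well above background on 2 of 24 arrays, and a probe 2698 bases further along the same strand (chr2:57426655-57426714), designed on a predicted transcript, was so on 23 of 24. Only the second was kept. Its log2 level ran from -4.25 through -3.67 to -2.55 over the saline arrays, from -3.76 through -3.32 to -3.10 over the acute arrays, and from -4.45 through -3.67 to -2.93 over the chronic arrays. The acute arrays lay inside the range of the other groups. Saline replicate 5 and chronic replicate 8, the arrays with the least Bdnf, had the most Gdnf. Acute minus saline was 0.25 (SE 0.16, 95% interval -0.10 to 0.59), chronic minus saline -0.02 (SE 0.16, -0.36 to 0.33) and chronic minus acute -0.26 (SE 0.16, -0.61 to 0.08), with limma adjusted p of 1.00, 0.999 and 0.961.

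Ntrk2, the TrkB gene, had 6 probes, 5 of them well above background on all arrays. A pair of probes printed on 10 spots each give its most precise values. One is designed on transcript variant 1 and lies 912 bases beyond the coding-end probe shown above (chr17:11495183-11495242, minus strand). The other is designed on variant 2, which here lies 180664 bases before that coding end (chr17:11676759-11676818). The spots of these probes differed on an array by a median SD of 0.04 and 0.07, against an SD of 0.20 and 0.19 between arrays, so spot noise was the smaller share.

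The variant 2 probe, used for the gene, ran from 1.50 through 2.06 to 2.49 over the saline arrays, from 1.75 through 1.99 to 2.04 over the acute arrays and from 1.73 through 1.97 to 2.09 over the chronic arrays. The saline arrays held both the lowest value (replicate 2) and the highest (replicate 4), and the treated arrays lay between them. Acute minus saline was -0.11 (SE 0.10, 95% interval -0.32 to 0.09) and chronic minus saline -0.08 (SE 0.10, -0.28 to 0.13), with limma adjusted p of 1.00 and 0.999. Without saline replicate 4 they were -0.02 and 0.01. With all samples, as folds, these intervals span 0.802 to 1.07 and 0.823 to 1.10, the narrowest among the members. Tested each alone, the 16 kept probes of all members had no unadjusted p under 0.05, the smallest being 0.0941 for the Ntrk2 coding-end probe in chronic against acute (a difference of 0.26, SE 0.15).

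The 2 variants were compared on each array by the log2 value of the variant 2 probe minus that of the variant 1 probe, of which only the change between groups can be read. The difference ran from -0.49 to 0.69 in saline, from -0.22 to 0.29 in acute and from -0.28 to 0.36 in chronic arrays, so saline spanned the other groups. Means over samples were 0.17 ± 0.33, -0.02 ± 0.12 and 0.08 ± 0.16 (SD, n = 6). The changes of -0.19, -0.09 and 0.10 for acute-saline, chronic-saline and chronic-acute had exact permutation p of 0.275, 0.578 and 0.273 (two-sided), and 0.619, 0.743 and 0.619 after adjustment over the 9 such tests. Without saline replicate 4, which held the highest difference, the acute-saline and chronic-saline changes were -0.09 and 0.01 (exact permutation p = 0.550 and 0.887, adjusted over 6 tests 0.991 each). The other variant 2 probe against the coding-end probe gave adjusted p of 0.743 to 0.755 by the same exact permutation test.

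Ntrk3, the TrkC gene, had 3 probes, all well above background on every array. The probe used for the gene (chr1:134026091-134026150, minus strand), designed on a predicted transcript, ran from 0.75 through 1.03 to 1.48 in saline, from 0.73 through 1.23 to 1.40 in acute and from 0.55 through 0.98 to 1.43 in chronic arrays. The 3 groups covered nearly the same range. Acute minus saline was 0.08 (SE 0.13, 95% interval -0.20 to 0.36), chronic minus saline -0.05 (SE 0.13, -0.33 to 0.23) and chronic minus acute -0.13 (SE 0.13, -0.41 to 0.15), all with limma adjusted p of 0.961 or more. Chronic minus saline turned to 0.01 without the saline pair of replicates 2 and 5 and to 0.03 without chronic replicate 4. A second probe, 100561 bases further along the minus strand and designed on another transcript, varied with it (r = 0.77, rho = 0.70, permutation p = 0.00012 and 0.00136, adjusted over 21 pairs of probes 0.00063 and 0.00952, n = 18 samples), with r = 0.66 without the 2 farthest samples and 0.76, 0.80 and 0.68 within the slides. The difference of these probes on each array changed by -0.13 from acute to chronic (exact permutation p = 0.026, adjusted p = 0.234), by -0.16 from saline to chronic (exact p = 0.121, adjusted p = 0.545) and by -0.03 from saline to acute (exact p = 0.755), so none passed.

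Ngfr, the p75 gene, was well above background on 17 of 24 arrays (chr10:84263082-84263141, minus strand): 4 saline, 6 acute and 7 chronic. It ran from -5.86 through -5.31 to -1.95 in saline, from -5.92 through -4.83 to -3.61 in acute and from -5.95 through -5.16 to -3.70 in chronic arrays. Saline replicate 4 stood far above the others, and the rest of the groups overlapped. Acute minus saline was -0.05 (SE 0.53, 95% interval -1.18 to 1.07) and chronic minus saline -0.33 (SE 0.53, -1.45 to 0.79), with limma adjusted p of 1.00 and 0.999. Without saline replicate 4 these differences became 0.49 and 0.21.

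Gfra1, the GDNF co-receptor, had 3 kept probes. A pair of them share 57 bases of genome, and the third spans 802 bases of it with 60 bases of probe, so it crosses an intron in the alignment the arrays carry. A probe designed on a predicted transcript was well above background on 0 of 24 arrays and is not considered further. The probe used for the gene (chr1:264614329-264614388, minus strand) ran from -0.45 through -0.06 to 0.65 in saline, from -0.74 through -0.09 to 0.28 in acute and from -1.69 through -0.02 to 0.69 in chronic arrays. Chronic replicate 7 was lowest on each of the 3 kept probes, at -1.69, -2.10 and -5.92, and the probes varied together over the samples (r = 0.98, 0.89 and 0.88, rho = 0.95, 0.71 and 0.69, permutation p of 9e-05 or less for r and 0.00204 or less for rho, adjusted p of 0.0107 or less, n = 18). Chronic minus saline was -0.26 (SE 0.26, 95% interval -0.81 to 0.30, limma adjusted p = 0.999), and without chronic replicate 7 it was 0.03. Acute minus saline was -0.14 (SE 0.26, adjusted p = 1.00 by limma).

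Ret, the receptor kinase, was barely measured. Its kept probe, of transcript variant 1 (chr4:154448663-154448722, minus strand), was well above background on 9 of 24 arrays: 2 saline, 3 acute and 4 chronic. It passed the filter through the chronic group alone, and most of its values compared below were not well above background. The 2 other probes were well above background on 2 arrays each. The kept probe ran from -7.73 through -6.65 to -3.88 in saline, from -7.14 through -6.05 to -5.82 in acute and from -8.33 through -6.62 to -4.79 in chronic arrays. Saline replicate 4 and saline replicate 5 were the highest arrays, and the only ones on which the variant 2 probe was well above background. Chronic minus saline was -0.45 (SE 0.55, 95% interval -1.60 to 0.70, limma adjusted p = 0.999), an interval from 0.329-fold to 1.63-fold. It turned to 0.03 without saline replicate 4, and was -0.13 without chronic replicate 1 and -0.74 without saline replicate 7. Acute minus saline was -0.11 (SE 0.55, adjusted p = 1.00 by limma), and 0.36 without saline replicate 4.

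**Figure D2:**
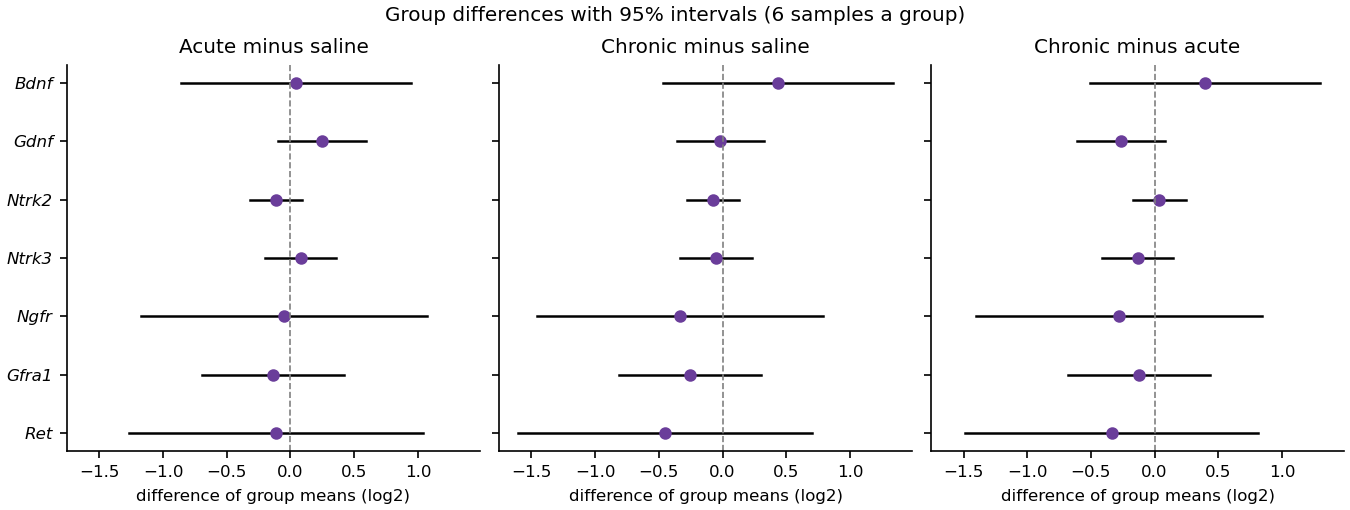
Differences of group means for the 7 members tested (horizontal axes: log2 difference; point: limma estimate; line: 95% interval; 6 samples a group). Every interval crosses 0, and those of Bdnf, Ngfr and Ret are several times wider than those of Ntrk2 and Ntrk3.

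Other genes of these pathways, on a list of 70 that holds further ligands, receptors, processing enzymes, adaptors, kinases and attenuators, behaved likewise: 64 were tested and 0 passed in any comparison (limma, adjusted p of 0.05). At an unadjusted p of 0.05 the list had 0, 0 and 1 genes for acute-saline, chronic-saline and chronic-acute. Its median differences were 0.00, 0.03 and 0.04, beside -0.00, 0.02 and 0.02 over all genes. The genes named here were among those with the smallest F test p of each role group. The ligand genes Artn and Pspn had chronic-saline differences of -0.28 (SE 0.14) and 0.04 (SE 0.33). Sort1, the sorting receptor that binds precursors together with p75, had 0.27 (SE 0.14). The proprotein convertase gene Pcsk5 had 0.18 (SE 0.17), and Plat, which codes for the plasminogen activator that starts cleavage of pro-BDNF, had -0.19 (SE 0.12). Among adaptors, Frs3 had -0.40 (SE 0.19) and Gab2 -0.01 (SE 0.13). The p75 partners Maged1 and Arhgdia had 0.16 (SE 0.13) and 0.10 (SE 0.12), and Maged1 was the gene with an unadjusted p under 0.05 in chronic-acute (0.32, SE 0.13, adjusted p = 0.961 by limma). The ubiquitin ligase genes Cblb and Nedd4, which limit receptor signalling, had 0.29 (SE 0.16) and 0.19 (SE 0.11).

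The members varied from sample to sample, and this variation was set against marker genes of the striatum and of the tissue around it. Each of the 7 members was compared over the 18 samples with the mean level of 6 marker lists, 42 relations in all, and 10 passed an adjusted p of 0.05 (Pearson, two-sided permutation test). In a bulk sample, fewer cells of a type and less RNA per cell cannot be told apart.

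Bdnf rose with the cortical excitatory neuron list. The list is the mean of 12 measured genes such as Slc17a7, Neurod6 and Nptx1, and its level was lowest at -4.50 (chronic replicate 8) and highest at -1.60 (chronic replicate 6), the array with the highest Bdnf. By group the list ran from -4.48 to -1.62 in saline, from -3.04 to -2.07 in acute and from -4.50 to -1.60 in chronic arrays. Pearson's r was 0.88 and Spearman's rho 0.90 (permutation p = 2e-05 and 1e-05, adjusted p = 0.00084 and 0.00042, n = 18), where 1e-05 is the smallest the permutations can give. Without the 2 samples farthest from the median list level, saline replicate 4 and the pair that holds saline replicate 5, r was 0.78. Within slides 1, 2 and 3 it was 0.82, 0.97 and 0.88 over 8 arrays each. Only 0.344% of 20621 genes outside the list had an r as high. Of the 12 list genes taken singly, 11 had a positive r with Bdnf, the exception being Rorb (-0.09), and Nptx1 had the highest (0.87). Chronic replicate 7 lay below the trend, with Bdnf at -5.71 and the list at -2.23.

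Gdnf and the Ntrk3 probe used for the gene fell as the same list rose. Gdnf had r = -0.63 and rho = -0.78 (permutation p = 0.00405 and 0.00018, adjusted p = 0.034 and 0.00252, n = 18). Its r was -0.76 without the 2 farthest samples and -0.74, -0.73 and -0.68 within the slides. Its adjusted p rose to 0.0609, 0.0619, 0.0512 and 0.0895 by permutation when chronic replicate 3, chronic replicate 4, acute replicate 2 or the saline pair of replicates 2 and 5 was left out. Ntrk3 had r = -0.66 and rho = -0.82 (permutation p = 0.00233 and 4e-05, adjusted p = 0.0245 and 0.00084), with -0.76 without the 2 farthest samples and -0.73, -0.76 and -0.68 within the slides. Its adjusted p was 0.0549 without chronic replicate 4 and 0.051 without that saline pair. The second Ntrk3 probe that varied with it had r = -0.25 with the list (permutation p = 0.32, adjusted over the 96 relations of single probes 0.506), and the third -0.15 (permutation p = 0.547, adjusted p = 0.729). With all 24 arrays taken singly, r was 0.92 for Bdnf, -0.72 for Gdnf and -0.71 for Ntrk3. The averaged chronic pair of replicates 6 and 8 joins the highest and the lowest array of this list. An r as low was found for 3.73% of genes in the case of Gdnf and 2.72% in that of Ntrk3. Values relative to an array's 75th percentile are shares of the RNA, and whether these genes fell or were diluted was not tested.

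**Figure D3:**
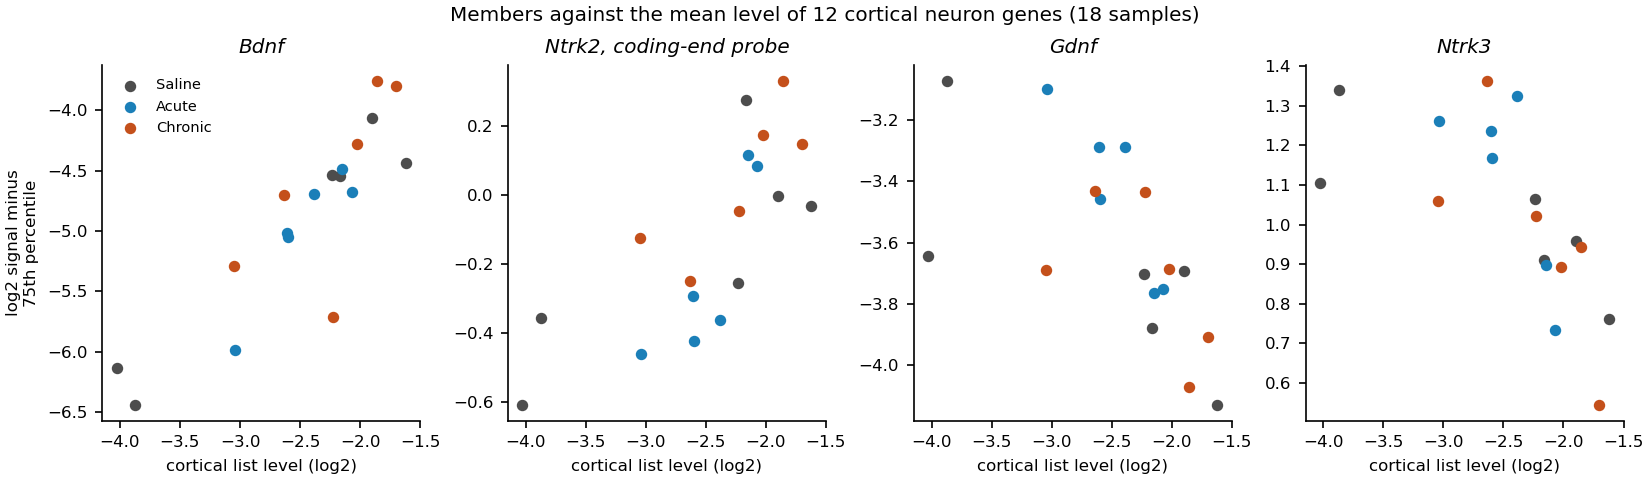
The probes of Bdnf, Ntrk2 (coding end), Gdnf and Ntrk3 (vertical axes: log2 signal minus the array's 75th percentile) against the mean log2 level of 12 cortical neuron genes (horizontal axis) in 18 samples, coloured by group. Bdnf (r = 0.88) and the Ntrk2 coding-end probe (r = 0.75) rise with the list, Gdnf (r = -0.63) and Ntrk3 (r = -0.66) fall, and the groups are mixed along each cloud.

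Probes of 1 gene gave different relations, though the differences between them were not tested. When all 16 kept probes were set against the 6 lists (96 relations, chosen after the gene-level values were seen), 6 passed. The Ntrk2 coding-end probe, with the tyrosine codon of the kinase form in capitals above, rose with the cortical list (r = 0.75, rho = 0.79, permutation p = 0.00015 and 0.00019, adjusted p = 0.0048 and 0.00456, n = 18). Its r was 0.69 without the 2 farthest samples and 0.40, 0.93 and 0.50 within the slides. The other 5 Ntrk2 probes had r between -0.35 and 0.38 with that list, also the variant 1 probe that lies 912 bases beyond it (0.10). Those 2 probes of the kinase form had r = -0.38 with each other (permutation p = 0.115, adjusted p = 0.259, n = 18). The Ntrk3 probe with the Shc-docking codon rose with the striatal projection neuron list (r = 0.73, rho = 0.74, permutation p = 0.00014 and 0.00071, adjusted p = 0.0048 and 0.0136). It had r = 0.83 without the 2 farthest samples, 0.79 without saline replicate 4 and 0.92, 0.62 and 0.80 within the slides. In this larger set of relations the adjusted p of Gdnf with the cortical list was 0.056.

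**Figure D4:**
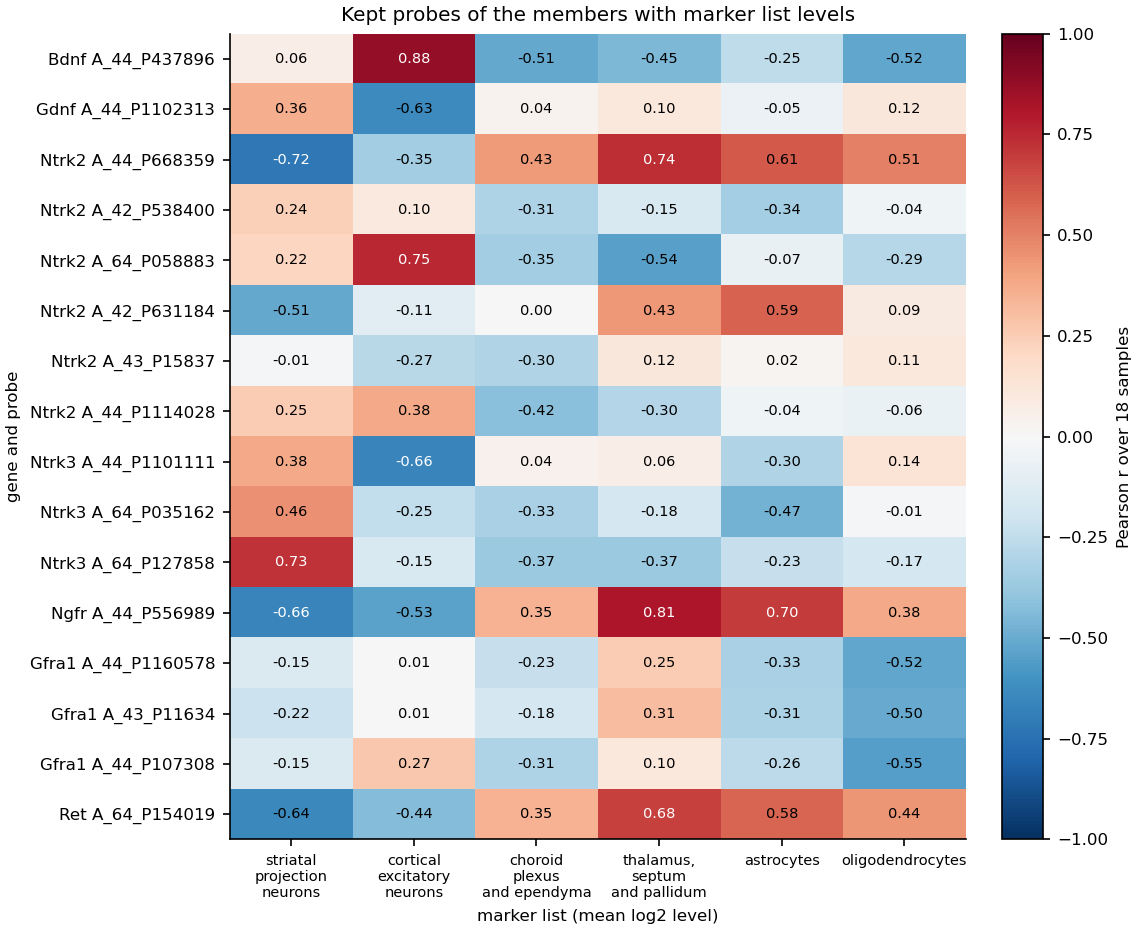
Pearson r over 18 samples (colour and printed value) of each of the 16 kept probes (rows) with the mean log2 level of 6 marker lists (columns). The cortical column holds the highest value, 0.88 for Bdnf. In that column the Ntrk2 probes run from -0.35 to 0.75, and the Ntrk3 probes are all negative (-0.66, -0.25 and -0.15).

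The relations of Ngfr, Ret and the Ntrk2 variant 2 probe with the lists were past the threshold only with saline replicate 4 included. The list of thalamus, septum and pallidum ran from -3.07 to -0.83 in saline, from -3.08 to -2.08 in acute and from -3.32 to -2.38 in chronic arrays, and its highest value was that array's. Ngfr rose with this list (r = 0.81, permutation p = 0.00174, adjusted p = 0.0244; rho = 0.48, adjusted p = 0.305) and with the astrocyte list (r = 0.70, permutation p = 0.00107, adjusted p = 0.0225; rho = 0.63, adjusted p = 0.0664). Ret had r = 0.68 and 0.58 with the same lists and -0.64 with the striatal list, and Ntrk2 had 0.61 with astrocytes and -0.72 with the striatal list (permutation p of 0.0108 or less, adjusted p of 0.0383 to 0.0452). Without saline replicate 4 none of these 7 relations passed. Ngfr then had r = 0.47 (permutation p = 0.0576, adjusted p = 0.269) with thalamus, septum and pallidum and 0.52 (permutation p = 0.0326, adjusted p = 0.171) with astrocytes. Ret had 0.30 (permutation p = 0.242, adjusted p = 0.597) with thalamus, septum and pallidum, 0.36 (permutation p = 0.16, adjusted p = 0.448) with astrocytes and -0.28 (permutation p = 0.276, adjusted p = 0.644) with the striatal list. Ntrk2 had 0.36 (permutation p = 0.155, adjusted p = 0.448) with astrocytes and -0.26 (permutation p = 0.308, adjusted p = 0.652) with the striatal list. Without the 2 samples farthest from the list's median the r of these 7 relations lay between -0.17 and 0.52. Within slides 1, 2 and 3, Ngfr with thalamus, septum and pallidum had 0.02, 0.87 and 0.74 and with astrocytes 0.53, 0.82 and 0.08. The sign differed between slides for Ntrk2 with astrocytes (-0.23, 0.81 and -0.17), Ret with astrocytes (0.64, 0.59 and -0.02) and Ret with the striatal list (-0.03, -0.63 and 0.07).

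Among the members themselves, each by the probe used for the gene, 5 of 21 pairs passed (Pearson, permutation, adjusted over the pairs). The share of all gene pairs that would pass was not computed. Bdnf, Gdnf and Ntrk3 each varied with the cortical list above, and whether their pairs go beyond that shared variation was not tested. Gdnf and Ntrk3 rose together (r = 0.82, rho = 0.85, permutation p = 6e-05 and 3e-05, adjusted p = 0.00126 and 0.00063, n = 18). Their r was 0.78 without the 2 farthest samples and 0.87, 0.89 and 0.96 within the slides. Both probes are designed on predicted transcripts. The Ntrk3 probe with the Shc-docking codon had r = 0.38 with the Ntrk3 probe used (permutation p = 0.123, adjusted over 21 pairs of probes 0.259). That coding probe was not tested against Gdnf. Bdnf moved against Gdnf (r = -0.71, rho = -0.77, permutation p = 0.00103 and 0.00025, adjusted p = 0.00959 and 0.00262), at -0.73 without the 2 farthest samples and -0.79, -0.82 and -0.75 within the slides. It also moved against Ntrk3 (r = -0.60, rho = -0.69, permutation p = 0.00852 and 0.0021, adjusted p = 0.0447 and 0.0147), with -0.55 without the 2 farthest samples and -0.62, -0.80 and -0.64 within the slides. This pair passed in only 6 of 18 fits that left out a sample, with adjusted p up to 0.123 by permutation without the saline pair of replicates 2 and 5. Without saline replicate 4 it had r = -0.62 (permutation p = 0.00716, adjusted p = 0.0501). Ngfr with Ret (r = 0.74, adjusted p = 0.00959 by permutation) and Ntrk2 with Ngfr (r = 0.68, adjusted p = 0.0457 by permutation) again leaned on saline replicate 4, without which r was 0.49 (permutation p = 0.045, adjusted p = 0.189) and 0.22 (permutation p = 0.396, adjusted p = 0.836). By the probes used for the genes, relations of ligands with their own receptors did not pass. Bdnf and the Ntrk2 variant 2 probe had r = -0.16, Gdnf and Gfra1 -0.23, and Gdnf and Ret -0.03 (permutation p = 0.524, 0.378 and 0.902, adjusted p = 0.807, 0.794 and 0.960, n = 18). The Ntrk2 coding-end probe, which rose with the cortical list as Bdnf did, was not tested against Bdnf.

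**Figure D5:**
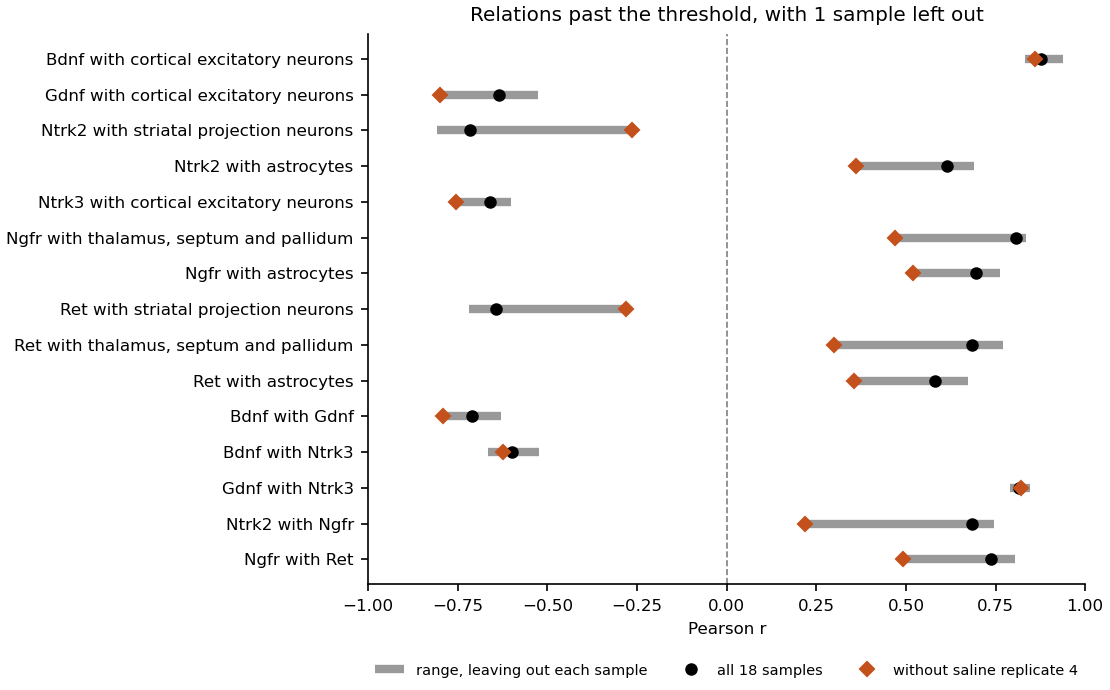
Pearson r (horizontal axis) of the 15 relations past an adjusted p of 0.05, 10 with marker lists and 5 between members. The black point is r over 18 samples, the grey bar its range when each sample is left out in turn, and the diamond its value without saline replicate 4; the bars of Bdnf with the cortical list (0.83 to 0.94) and of Gdnf with Ntrk3 (0.79 to 0.85) are short, and that of Ntrk2 with Ngfr reaches down to 0.22.

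The genes whose values over the 24 arrays, after removal of group means, were most like each member are given as a description. For Bdnf they were Neurod6 and Neurod2 (r = 0.93 each), transcription factor genes of cortical neurons that are also on the cortical list, and Crhbp (0.92), which codes for the binding protein of corticotropin-releasing hormone. For Gdnf they were Ggh (0.89), Ntrk3 itself (0.88) and Ctdsp2 (0.87), and for Ntrk3 they were Pacsin2 (0.95), Gulp1 (0.94) and Tmem161a (0.93). The Ntrk2 variant 2 probe was most like Nopchap1 (0.83), Gli1 (0.82), a Hedgehog target, and Lats2 (0.81). Ngfr was most like Ncs1 (0.91), Fgf1 (0.89) and Agt (0.89), the angiotensinogen gene. Gfra1 was most like C7h12orf75 (0.91), Cbln1 (0.84), a synapse organiser, and Trpv2 (0.84), and Ret most like Tecta (0.78), Glb1 (0.76) and Sytl4 (0.74).

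No relation of a member with array quality passed the test. With the share of spots well above background, r ran from -0.25 for Gfra1 to 0.33 for Ngfr, and Bdnf had -0.19. With the log2 75th percentile of intensity Bdnf had 0.21. By Pearson's r, all 14 such relations had a permutation p of 0.187 or more and an adjusted p of 0.903 or more (n = 18). Spearman's rho with the share of spots well above background was further from 0 for Gfra1 (-0.47) and Ngfr (0.46). Their unadjusted permutation p was 0.0523 and 0.0549. The 6 pairs of arrays that share a letter differed in Bdnf by 0.28 to 3.17, with a median of 0.65, so arrays of a pair could differ nearly as far as the whole set.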

How the data were processed

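Striatal RNA of 3 treatment groups was measured on 24 1-colour arrays. The authors deposited scanner tables made with Agilent Feature Extraction 10.7, per the submitters' processing notes, with a processed signal intensity and detection flags for each spot, already background-corrected per the file headers. A deposited table of log2 values by the authors, with ranks equal to those of the processed signal, served as an alternative; its centring is not stated. From the intensity, log2 of the processed signal minus the array's 75th percentile over non-control spots was computed, leaving out spots flagged as outliers and averaging spots of a probe. Probes well above background on a share of at least 0.5 of the arrays of a group were kept, and the kept probe with the highest mean stood for a gene. Kept probes were named through RefSeq (16181 by accession, 2749 by symbol, 203 by synonym) or by the array's own name (7126). The 18 samples were fitted with limma 3.58.1 in R 4.3.3, all groups together, with Benjamini-Hochberg adjustment at 0.05, after a test on simulated data. Relations used 100000 permutations (scipy 1.17.1). Members and lists were chosen with earlier results of these data known; the tests on single probes and on array quality were added after their values were seen. Named genes are the 8 members, the 2 genes per role group with the smallest F test p, and the 3 genes most like each member; 1 gene that this rule picks is not reported here. The number of arrays limits the precision.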

Additional observations from a re-analysis of the deposited data

Results flagged for a closer look

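The highest and lowest sample were checked in 21 groups of 6 samples (7 members in 3 groups). In 4 of them the gap to the neighbour was a larger share of the group's range than Dixon's 95% critical value allows. For samples of equal spread, chance gives about 5% of groups, or 1.05 here. Each group mixes single arrays with averaged pairs, and all 4 flags fell on single arrays, so this comparison is loose. Ngfr in saline replicate 4 was -1.95, with the next sample at -4.61 and the lowest at -5.86. Ntrk2 (variant 2 probe) was 2.49 in the same replicate, with the next at 2.07. Gfra1 in chronic replicate 7 was -1.69, with the next at -0.14, and the other 2 kept probes of the gene were lowest on that array too. The oligodendrocyte list was at 2.17 on that array, rank 23 from the lowest. Gfra1 had r = -0.52 with that list over 18 samples (permutation p = 0.038, adjusted p = 0.0999) and -0.76 without saline replicate 4. Without the 2 samples farthest from the median list level, saline replicate 4 and chronic replicate 7, r was -0.46. Within slides 1, 2 and 3 it was -0.95, -0.05 and -0.94, with chronic replicate 7 on slide 3. Bdnf in acute replicate 3 was -5.99, with the next at -5.05, and the cortical list was also lowest there among the acute arrays (-3.04).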

How the results depend on the processing

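Tests were run under 35 other settings. These included other scalings, background corrections, filters, probes, slide or letter as a block, and each sample left out. Under all of them 0 members and 0 genes passed in any comparison (limma). Each slide alone gave differences only, with no test. The smallest adjusted p of a member was 0.204 (Gdnf, chronic against acute), and its smallest unadjusted p 0.016. Of the 21 member differences, 6 kept their sign under every alternative but the fits on 1 slide, and 15 changed it under at least 1; none was called, so no direction is given. With group means removed, 5 of 42 list relations and 2 of 21 member pairs passed, in place of 10 and 5. Leaving out each sample gave 1 to 13 list relations (1 without chronic replicate 4, 4 without chronic replicate 3, acute replicate 2 or the saline pair of replicates 2 and 5) and 2 to 5 pairs. Bdnf with the cortical list and Gdnf with Ntrk3 passed in 18 of 18 such fits and in 5 of 5 other settings. Gdnf with the cortical list passed in 14 of 18, Ntrk3 in 16 and Bdnf with Gdnf in 17. Bdnf with Ntrk3 passed in 6 of 18 and 3 of 5, Ntrk2 with Ngfr likewise, and Ngfr with astrocytes in 16 of 18 and 5 of 5, failing without saline replicate 4 or chronic replicate 4. Ret with the striatal list passed in 0 of 5 other settings. Signal near background limits Ntf3, Ret, Ngfr and the Gdnf coding-end probe.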
